A study of Homo sapiens and Mus musculus with 12 samples.

Results

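Membrane mucins are cell-surface glycoproteins whose extracellular parts carry dense O-linked sugars, and the loci of 7 of them were examined for binding of SPDEF and GATA6 in pancreatic ductal adenocarcinoma (PDA) cells: MUC1, MUC4, MUC20, MUC13, MUC3A, MUC12 and MUC17. The members were the CUT&RUN peaks within 50 kb of these genes, by gene spans in whole kilobases of hg19, and of mouse Muc1 and Muc4 in mm10. They numbered 26 of the 19164 peaks in the 3 deposited lists. Of these, 7 came from the SPDEF list, 10 from the GATA6 list and 9 from the mouse Spdef list. The 7 human genes fall into 4 loci, because MUC4 and MUC20 are neighbours and MUC3A, MUC12 and MUC17 form a cluster that was taken as 1 span.

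CUT&RUN uses an antibody to bring a nuclease to chromatin and sequences the fragments it releases. HPAF-II, a long-established line of human PDA, supplied the human libraries and carried SPDEF with an HA tag (HA-hSPDEF): 3 were made with an antibody to the HA tag, 3 with an antibody to GATA6, 1 with IgG and 1 with an antibody to H3K4me3. The mouse libraries were made from FC1245, a KPC line of strain C57/Bl6 with the genotype KrasLSLG12D/+; Trp53LSLR172H/+; Pdx1-Cre, in which the Pdx1 promoter drives Cre. These cells carried HA-tagged mouse Spdef (HA-mSpdef), with 3 HA libraries and 1 IgG library. All libraries of a species thus came from cells with the tagged factor, GATA6 libraries included, and the labels do not say how the tagged factor was introduced or expressed. Each target has 1 list without replicate values or scores, so nothing could be set against the spread between replicates, and the depth is unknown. The lists held 2775 SPDEF, 10670 GATA6 and 5719 mouse Spdef peaks. They give positions alone, so neither mucin expression nor the strength of binding was measured. No peaks from IgG or H3K4me3 were analysed here, and the counts have no control beside them.

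SPDEF belongs to the ETS family and takes part in goblet cell differentiation, and ETS factors bind DNA around a GGAA or GGAT core. GATA6 is a zinc-finger factor of endoderm that binds GATA sequences and marks the classical subtype of PDA. MUC1 covers the apical surface of most simple epithelia and is abundant in pancreatic cancer. MUC4, a partner of the receptor ERBB2, is largely absent from normal pancreas and appears in PDA. MUC13, MUC3A, MUC12 and MUC17 are mucins of the intestinal surface, the last of these being part of the brush-border coat. MUC20 is a smaller mucin whose gene lies next to the 3′ end of MUC4.

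The promoters below are shown because a peak lay at the 5′ end of MUC1 and of MUC13, and because the MUC17 promoter held the most GATAA matches of the members. Each line gives the 250 bases before the annotated start, from RefSeq (GRCh38.p14), 5′ to 3′ on the strand of the gene. Capitals mark matches to GGAA, GGAT or GATAA on either strand. The windows are chr1:155192916-155193165 (minus strand) for MUC1, chr3:124934752-124935001 (minus strand) for MUC13 and chr7:101019831-101020080 (plus strand) for MUC17. The peaks are in hg19 and were not placed on these sequences.
MUC1: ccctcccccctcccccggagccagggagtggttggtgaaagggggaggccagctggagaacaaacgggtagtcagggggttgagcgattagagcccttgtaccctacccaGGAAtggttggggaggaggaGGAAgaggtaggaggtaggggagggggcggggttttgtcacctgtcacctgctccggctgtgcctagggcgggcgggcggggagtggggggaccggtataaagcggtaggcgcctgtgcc
MUC13: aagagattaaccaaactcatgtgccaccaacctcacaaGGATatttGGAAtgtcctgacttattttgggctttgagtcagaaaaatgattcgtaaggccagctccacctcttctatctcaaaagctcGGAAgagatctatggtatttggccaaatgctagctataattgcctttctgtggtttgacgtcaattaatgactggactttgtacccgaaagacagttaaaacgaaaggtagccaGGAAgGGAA
MUC17: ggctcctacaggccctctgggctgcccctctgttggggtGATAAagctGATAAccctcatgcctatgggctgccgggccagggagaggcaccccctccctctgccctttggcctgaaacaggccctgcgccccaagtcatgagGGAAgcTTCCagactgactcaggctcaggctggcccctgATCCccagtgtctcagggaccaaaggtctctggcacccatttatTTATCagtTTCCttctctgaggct

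Of the 5 gene ends that could be placed, MUC1 alone had peaks of both factors at its 5′ end. An SPDEF peak of 300 bp (hg19 chr1:155162888-155163187) lay across the 5′ end of the gene, whose span is 155158 to 155163 kb on the minus strand. A GATA6 peak of 315 bp (155162860 to 155163174) lay on the same place. The peaks shared 287 bp, which is 95.7% of the SPDEF peak and 91.1% of the GATA6 peak, and their edges differed by 28 and 13 bp. Both edges lay within 30 bp of each other in 170 of the 1828 overlapping pairs of the whole lists (9.30%). Spans are rounded to 1 kb, so a distance to a gene end carries an error of up to about 1 kb.

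The other peaks near MUC1 were not shared. A second SPDEF peak of 373 bp (155107812 to 155108184) lay 49.8 kb beyond the 3′ end, at the very edge of the 50 kb limit, and the next SPDEF peak outside it was 55.6 kb away. A second GATA6 peak of 109 bp (155148861 to 155148969) lay 9.0 kb beyond the 3′ end, and 96.6% of all GATA6 peaks are at least as wide. In RefSeq's GRCh38 order, the protein-coding genes SLC50A1, DPM3, KRTCAP2 and TRIM46 lie within 50 kb on the 3′ side of MUC1, where both of these peaks lay. A distal peak here therefore has several possible gene neighbours, and the lists do not tie a peak to a gene.

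The MUC1 window, 105 kb wide with its flanks, thus held 2 SPDEF and 2 GATA6 peaks, of which 1 of each was shared. Of 28904 windows of that width tiling chromosomes 1 to 22 and X, 1.72% held at least 2 SPDEF peaks, 8.52% at least 2 GATA6 peaks and 4.72% at least 1 SPDEF peak on a GATA6 peak. Among the 6066 windows with a GATA6 peak, the shares were 7.53% for 2 SPDEF peaks and 22.5% for a shared peak. On chromosome 1 alone 1.73% of windows held 2 SPDEF peaks, close to the genome-wide share. The windows were not matched for gene density.

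At MUC13 the 5′ end had GATA6 peaks without SPDEF, and the factors lay together far beyond the 3′ end. MUC13 lies on chromosome 3 from 124624 to 124654 kb, on the minus strand. GATA6 peaks of 169 bp (124653400 to 124653568) and 265 bp (124652362 to 124652626) lay inside the gene, 0.4 and 1.4 kb from its 5′ end. No SPDEF peak lay within 2 kb of that end, and the nearest was 55.8 kb away. Both GATA6 peaks were narrow for their list, with 92.8% and 66.4% of its peaks at least as wide. A further GATA6 peak of 188 bp (124691253 to 124691440) lay 37.3 kb upstream.

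A pair of SPDEF peaks lay past the 3′ end of MUC13, on the side of ITGB5, an integrin subunit gene, while HEG1 neighbours the 5′ end. The peaks were 263 bp (124597255 to 124597517) and 518 bp (124597680 to 124598197) wide and lay 26.5 and 25.8 kb from the gene. A single GATA6 peak of 524 bp (124597356 to 124597879) bridged them, sharing 162 bp with the first and 200 bp with the second. GATA6 peaks that overlap more than 1 SPDEF peak numbered 102 of the 1717 that overlap any (5.94%). Neither SPDEF peak met a stricter rule, under which at least 50% of both peaks must be covered. The next SPDEF peak on the chromosome was 980.8 kb from MUC13. Only 8.09% of windows of 130 kb held any SPDEF peak, so stretches of that width without one are common in this list. Windows as long as 980.8 kb were not counted.

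Counted over its 130 kb window, the MUC13 locus had 2 SPDEF peaks, both on GATA6, and 4 GATA6 peaks. At least 2 SPDEF peaks were found in 2.16% of 23344 windows of that width, at least 4 GATA6 peaks in 2.54% and at least 2 SPDEF peaks on GATA6 in 1.23%. Among the 5724 windows with a GATA6 peak, the shares were 8.16% for 2 SPDEF peaks and 5.00% for 2 of them on GATA6. With flanks of 10 kb the locus kept 2 GATA6 peaks and 0 SPDEF peaks.

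MUC4 had no peak of either factor on its span, from 195473 to 195540 kb of chromosome 3. Of windows of 105 kb, wider than this span, 6.70% held any SPDEF peak and 21.0% any GATA6 peak. An empty span is thus the usual state. The 5′ end of MUC4 was the farthest from GATA6 among the 5 ends that could be placed (MUC1, MUC4, MUC20, MUC13 and MUC3A), at 91.8 kb, and its nearest SPDEF peak was 63.4 kb away. All 4 peaks assigned to this locus lay instead around the 5′ end of MUC20, at 195447 kb, between 24.8 and 32.5 kb from the 3′ end of MUC4. The strand of MUC20 is taken here as plus, from general knowledge of the gene.

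Around MUC20, a GATA6 peak of 352 bp (195447825 to 195448176) lay inside the gene 0.8 kb from the 5′ end. Upstream, a GATA6 peak of 671 bp (195443069 to 195443739), the widest GATA6 peak of all 4 loci, was followed after a gap of 22 bp by an SPDEF peak of 137 bp (195443762 to 195443898), the narrowest SPDEF peak of the 4 loci. The pair lay about 3.1 kb before the gene. A second SPDEF peak of 275 bp (195440200 to 195440474) lay 6.5 kb before it, with no GATA6 peak closer than 2594 bp. Under the rule of at least 1 bp shared, no SPDEF peak at this locus was on GATA6, but with midpoints within 1 kb the adjoining peak counted, at a distance of 426 bp. Of the 979 SPDEF peaks without an overlap in the whole list, 27 (2.76%) had an edge within 100 bp of a GATA6 peak. This part of chromosome 3 is known for duplicated sequence related to MUC20, and the treatment of reads with several matches is not stated in the sources used here.

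The window of MUC4 and MUC20 is 193 kb wide and held 2 peaks of each factor. Of 15722 windows of that width, 3.42% held at least 2 SPDEF peaks and 16.0% at least 2 GATA6 peaks. Among the 5032 with a GATA6 peak, 10.0% held at least 2 SPDEF peaks. A shared peak, absent here under the 1 bp rule, was found in 8.22% of all 15722 windows.

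The cluster of MUC3A, MUC12 and MUC17 held 1 place occupied by both factors. Within its 156 kb on chromosome 7 (100547 to 100703 kb), an SPDEF peak of 374 bp (100660492 to 100660865) and a GATA6 peak of 397 bp (100660501 to 100660897) shared 365 bp. That is 97.6% of the SPDEF peak and 91.9% of the GATA6 peak, with edges 9 and 32 bp apart. The place lay 113.5 kb from the 5′ end of MUC3A, the first gene, and 42.1 kb from the far end, which is the 3′ end of MUC17. RefSeq gives MUC17 a length of 38.8 kb in GRCh38, but the whole cluster measures 109 kb there against 156 kb in hg19. Spans therefore do not carry over between the builds, and whether the place lies in MUC12, in MUC17 or between them was not determined.

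No other SPDEF peak lay near the cluster. The only further GATA6 peak, of 602 bp (100728617 to 100729218), lay 25.6 kb past MUC17, and TRIM56 is the only other protein-coding gene within 50 kb in RefSeq's GRCh38 table. The 5′ end of MUC3A had no GATA6 peak within 59.1 kb and no SPDEF peak within 96.7 kb. In windows of 256 kb, as wide as the cluster with its flanks, 14.3% of 11847 held at least 1 SPDEF peak, 20.9% at least 2 GATA6 peaks and 10.5% a shared peak. Among the windows with a GATA6 peak, 33.2% held an SPDEF peak and 27.5% a shared one. The counts over this long cluster were thus of a size often met elsewhere.

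**Figure D1:**
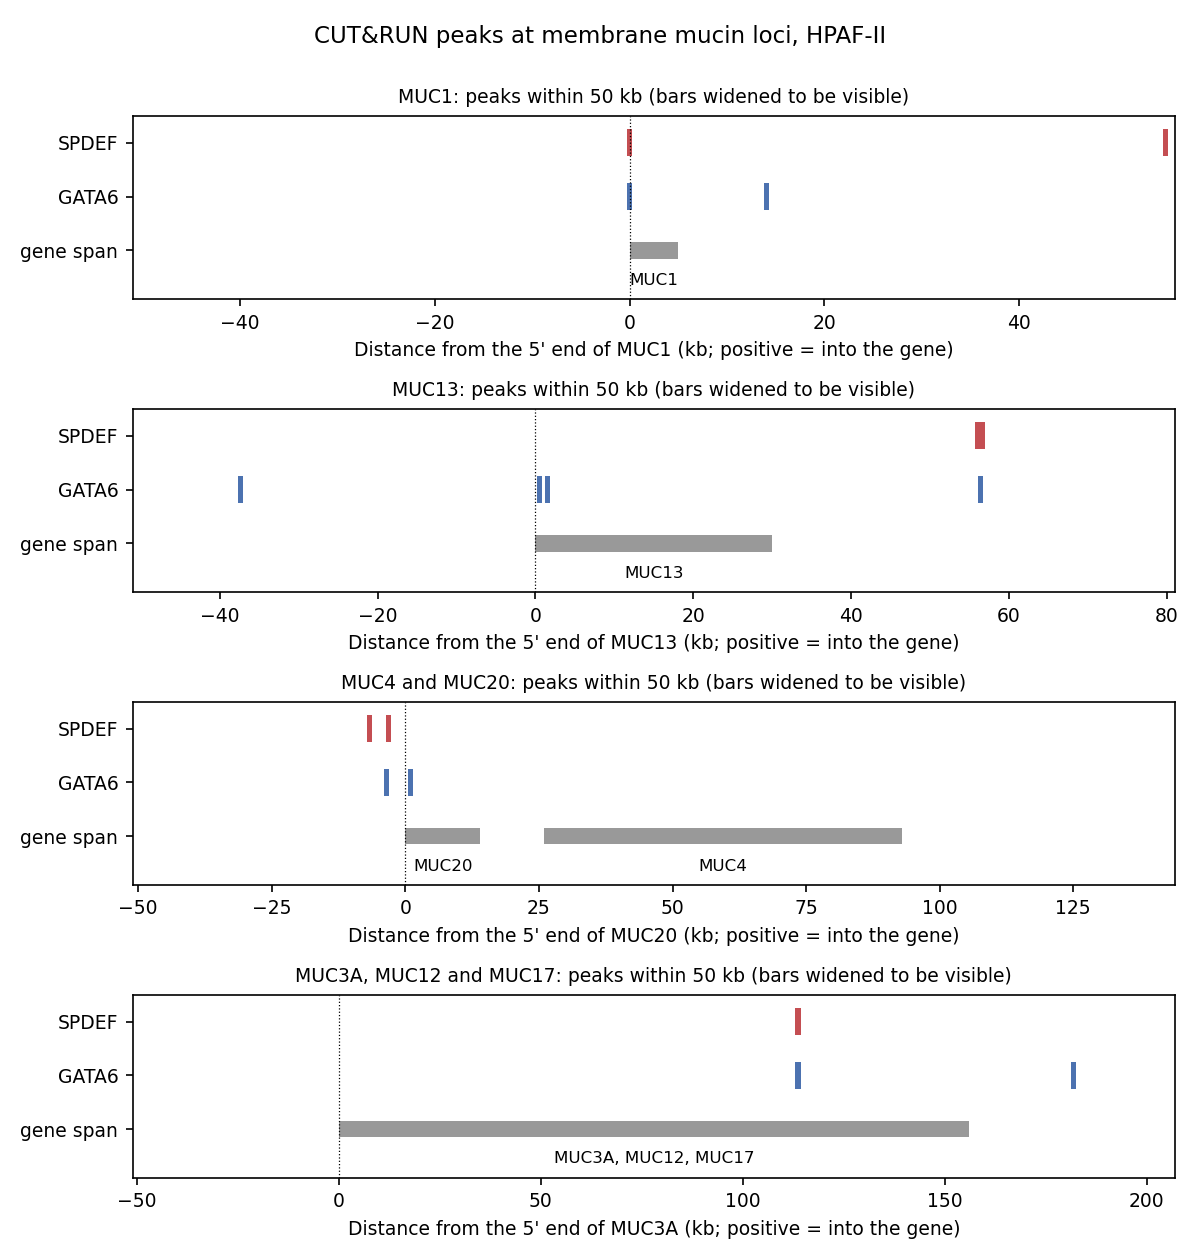
Maps of the 4 human loci, 1 panel each; the x axis is the distance in kb from the 5′ end of the named gene (positive into the gene), grey bars are gene spans, blue bars GATA6 peaks and red bars SPDEF peaks, widened to be visible, so that the SPDEF pair beyond MUC13 merges. Peaks of both factors coincide at the MUC1 5′ end and inside the MUC3A, MUC12 and MUC17 cluster, the MUC13 5′ end has GATA6 peaks alone, and the MUC4 span is empty.

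**Figure D2:**
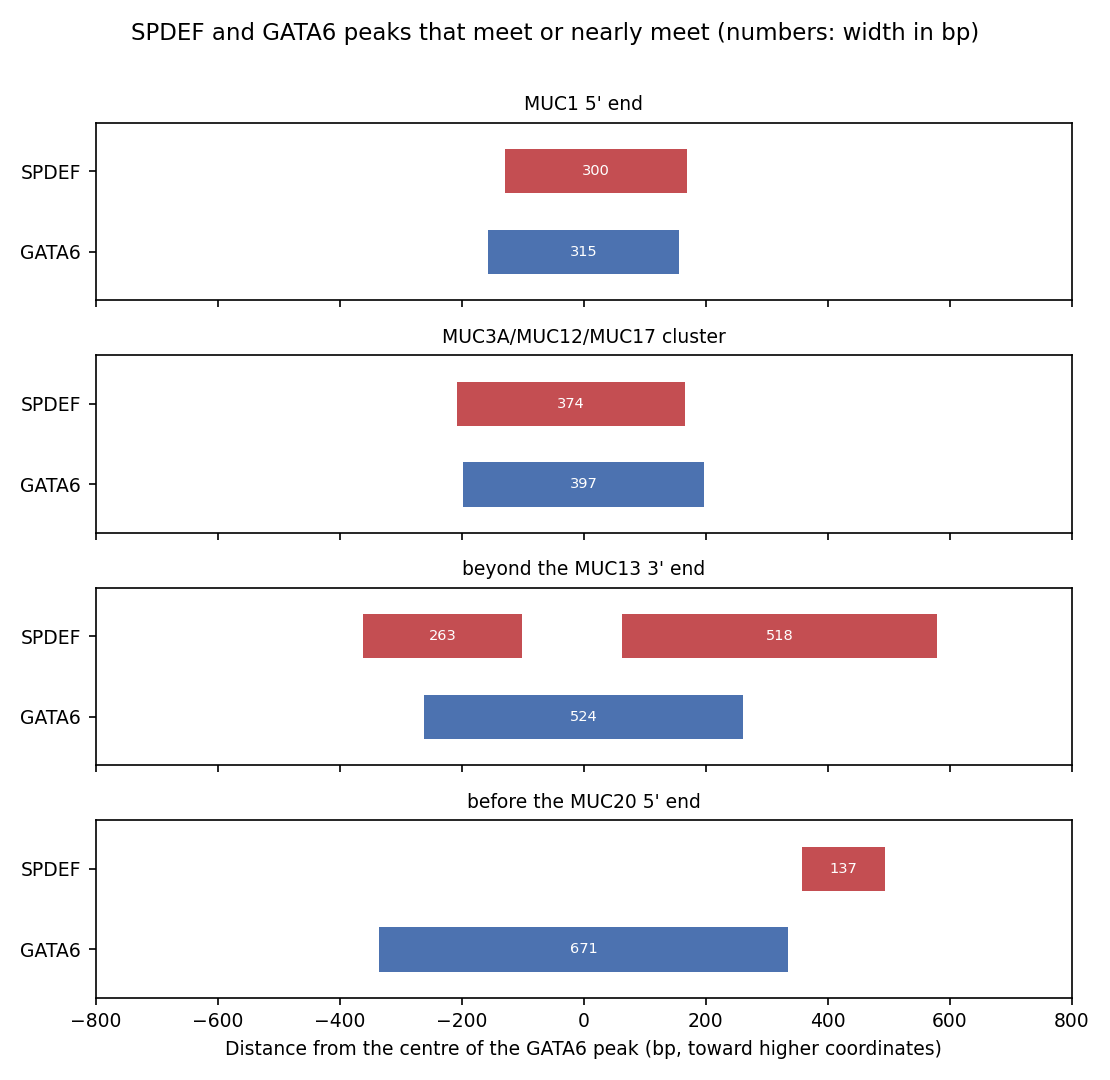
The 4 places where SPDEF (red) and GATA6 (blue) peaks meet or nearly meet; the x axis is the distance in bp from the centre of the GATA6 peak, toward higher coordinates, and the number on each bar is its width in bp. At MUC1 and in the cluster the bars share nearly the same edges, beyond MUC13 a GATA6 peak bridges a pair of SPDEF peaks, and before MUC20 the peaks are 22 bp apart.

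Over the 4 human loci, 4 of 7 SPDEF peaks lay on GATA6 (57.1%, with a 95% Wilson interval of 25.0 to 84.2), beside 64.7% of all SPDEF peaks. From the GATA6 side, 3 of 10 peaks overlapped SPDEF (Wilson interval 10.8 to 60.3%), beside 16.1% of all GATA6 peaks. Both intervals cover counting error only and treat peaks as independent, although the 2 SPDEF peaks beyond MUC13 lie on 1 GATA6 peak. Both include the share of the whole list. With so few peaks, whether the shares differ was not tested. The share at the loci moved with the rule. With 50% of each peak required to be shared it was 2 of 7, leaving the MUC1 and cluster peaks, beside 31.1% of the whole SPDEF list. With midpoints within 1 kb it was 5 of 7, beside 70.1% of the list.

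On a gene span lay 2 of the 7 SPDEF peaks, those at MUC1 and in the cluster, and both were on GATA6. Of the 10 GATA6 peaks, 5 lay on a span: 1 at MUC1, 1 at MUC20, 2 at MUC13 and 1 in the cluster. Among the 5′ ends that could be placed (MUC1, MUC4, MUC20, MUC13 and MUC3A), GATA6 had peaks within 2 kb at MUC1, MUC20 and MUC13. SPDEF had one at MUC1 only. The 5′ ends of MUC12 and MUC17 were not examined. The GATA6 list is the longer, covering 0.169% of chromosomes 1 to 22 and X against 0.0306% for SPDEF. No share over all genes or all peaks of a list is given here, so whether these counts are usual is unknown. Whether the factors differ in where they lie relative to genes was not tested.

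The peaks at the human loci had median widths near those of their lists. The SPDEF peaks ranged from 137 to 518 bp with a median of 300 bp, against 268 bp for the whole list, and 5 of the 7 were wider than the list's median. GATA6 peaks ranged from 109 to 671 bp with a median of 334 bp against 346 bp, and 5 of 10 were wider. Mouse Spdef peaks ranged from 56 to 1575 bp with a median of 523 bp against 437 bp, and 6 of 9 were wider. The shared GATA6 peak at MUC1 fell short of its list's median width, so it is lost when only the wider 50% of GATA6 peaks is kept.

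**Figure D3:**
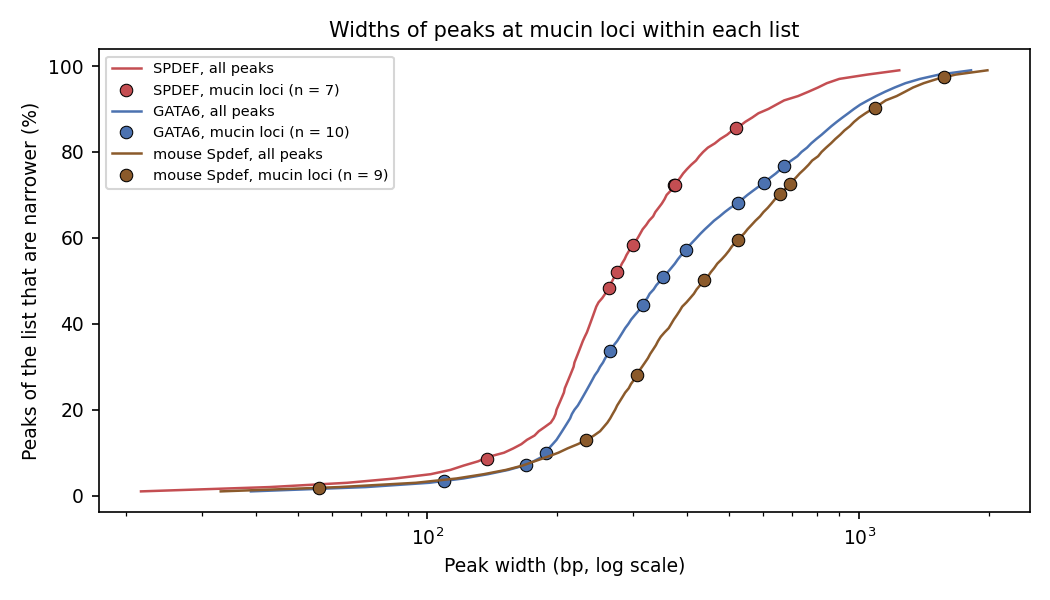
Peak width in bp (x axis, log scale) against the percentage of peaks of the same list that are narrower (y axis); lines are whole lists and circles the 7 SPDEF, 10 GATA6 and 9 mouse Spdef peaks at the mucin loci. The circles spread along the lines, and the highest is the mouse Spdef peak of 1575 bp inside Muc1.

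The mouse Muc1 locus was the most densely marked of all those examined. The gene spans 89229 to 89234 kb of mm10 chromosome 3, and 7 Spdef peaks lay within 50 kb of it. Of these, 3 lay on the gene span as rounded to 1 kb. One of 692 bp (89228536 to 89229227) lay across its lower-coordinate end. One of 1575 bp (89230420 to 89231994) lay inside it and one of 1087 bp (89233335 to 89234421) across its other end. Only 2.66% of mouse Spdef peaks are as wide as the 1575 bp peak or wider, and 9.79% as wide as the 1087 bp peak or wider. Together the peaks covered 2468 bp, or 49.4% of the Muc1 span as rounded to 1 kb, whereas the list covers 0.121% of mouse chromosomes 1 to 19 and X. A further peak of 438 bp (89227552 to 89227989) lay 1.0 kb before the lower-coordinate end. These 4 peaks fell in a stretch of 6.87 kb with a summed width of 3792 bp.

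The other peaks near mouse Muc1 were smaller or farther off: one of 523 bp (89213768 to 89214290) at 14.7 kb on the lower side, and on the upper side one of 233 bp at 36.2 kb and one of 56 bp at 44.0 kb. The next Spdef peak outside the limit was 138.7 kb away. At least 7 Spdef peaks were found in 21 of 25074 windows of the same 105 kb, or 0.0838%. On mouse chromosome 3 alone the share was 2 of 1524 windows, or 0.131%. These windows were not matched for gene density. With peaks under 100 bp left out the locus had 6, and with the wider 50% of the list 5.

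The human and mouse windows of Muc1 are equally wide, at 105 kb, and held 2 and 7 peaks. The mean over all windows of that width was 0.0962 SPDEF peaks in the human list and 0.229 in the mouse list. The lists differ in length and their depths are unknown, so the counts are set side by side without a test of their difference. In both species a peak lay across an end of the gene span as rounded to 1 kb. That was the 5′ end in human and both ends in mouse, whose strand was not available. With an error of up to about 1 kb, whether these peaks cross the true gene ends is not settled.

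Mouse Muc4 had no peak on its span, which runs from 32735 to 32783 kb of mm10 chromosome 16. Its Spdef peaks were one of 306 bp (32728592 to 32728897) at 6.1 kb from the lower-coordinate end and one of 657 bp (32803403 to 32804059) at 20.4 kb from the upper end. Among the wider windows of 148 kb, 18.9% held any Spdef peak, so an empty span is the usual state. In windows of 148 kb, 7.50% of 17783 held at least 2 Spdef peaks, and on chromosome 16 alone 5.13%. Mouse orthologues of the other members were not analysed here.

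**Figure D4:**
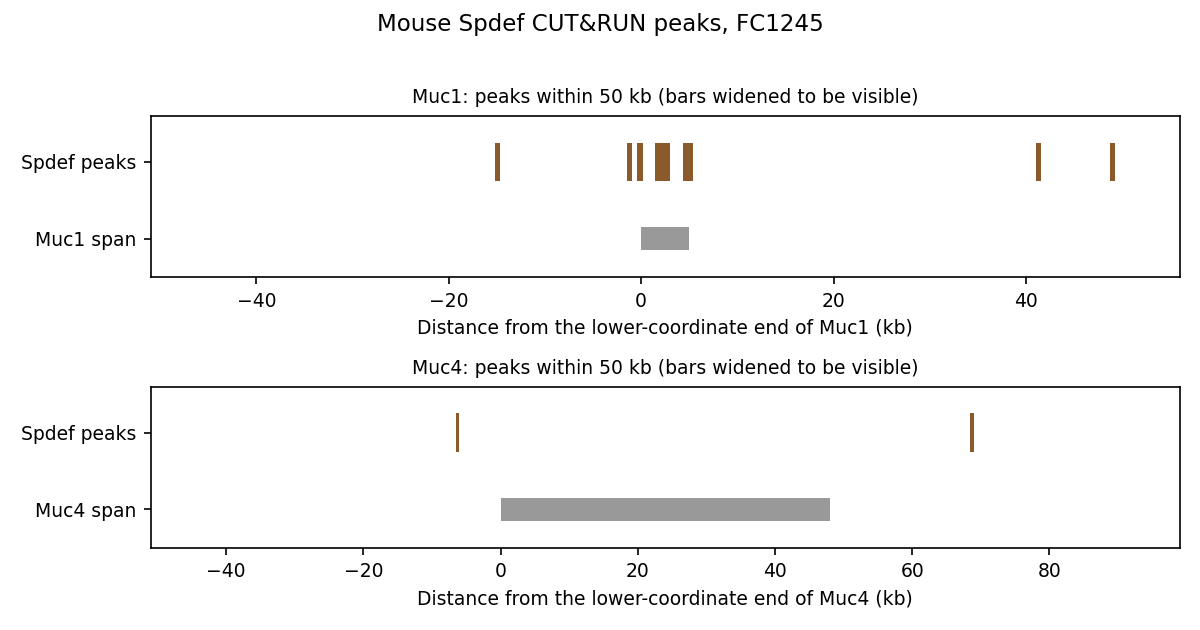
Mouse Spdef peaks (brown, widened to be visible) around Muc1 and Muc4 (grey spans); the x axis is the distance in kb from the lower-coordinate end of the gene. For Muc1, 4 of 7 peaks lie on the span or 1.0 kb from it, and for Muc4 both peaks lie outside the span.

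**Figure D5:**
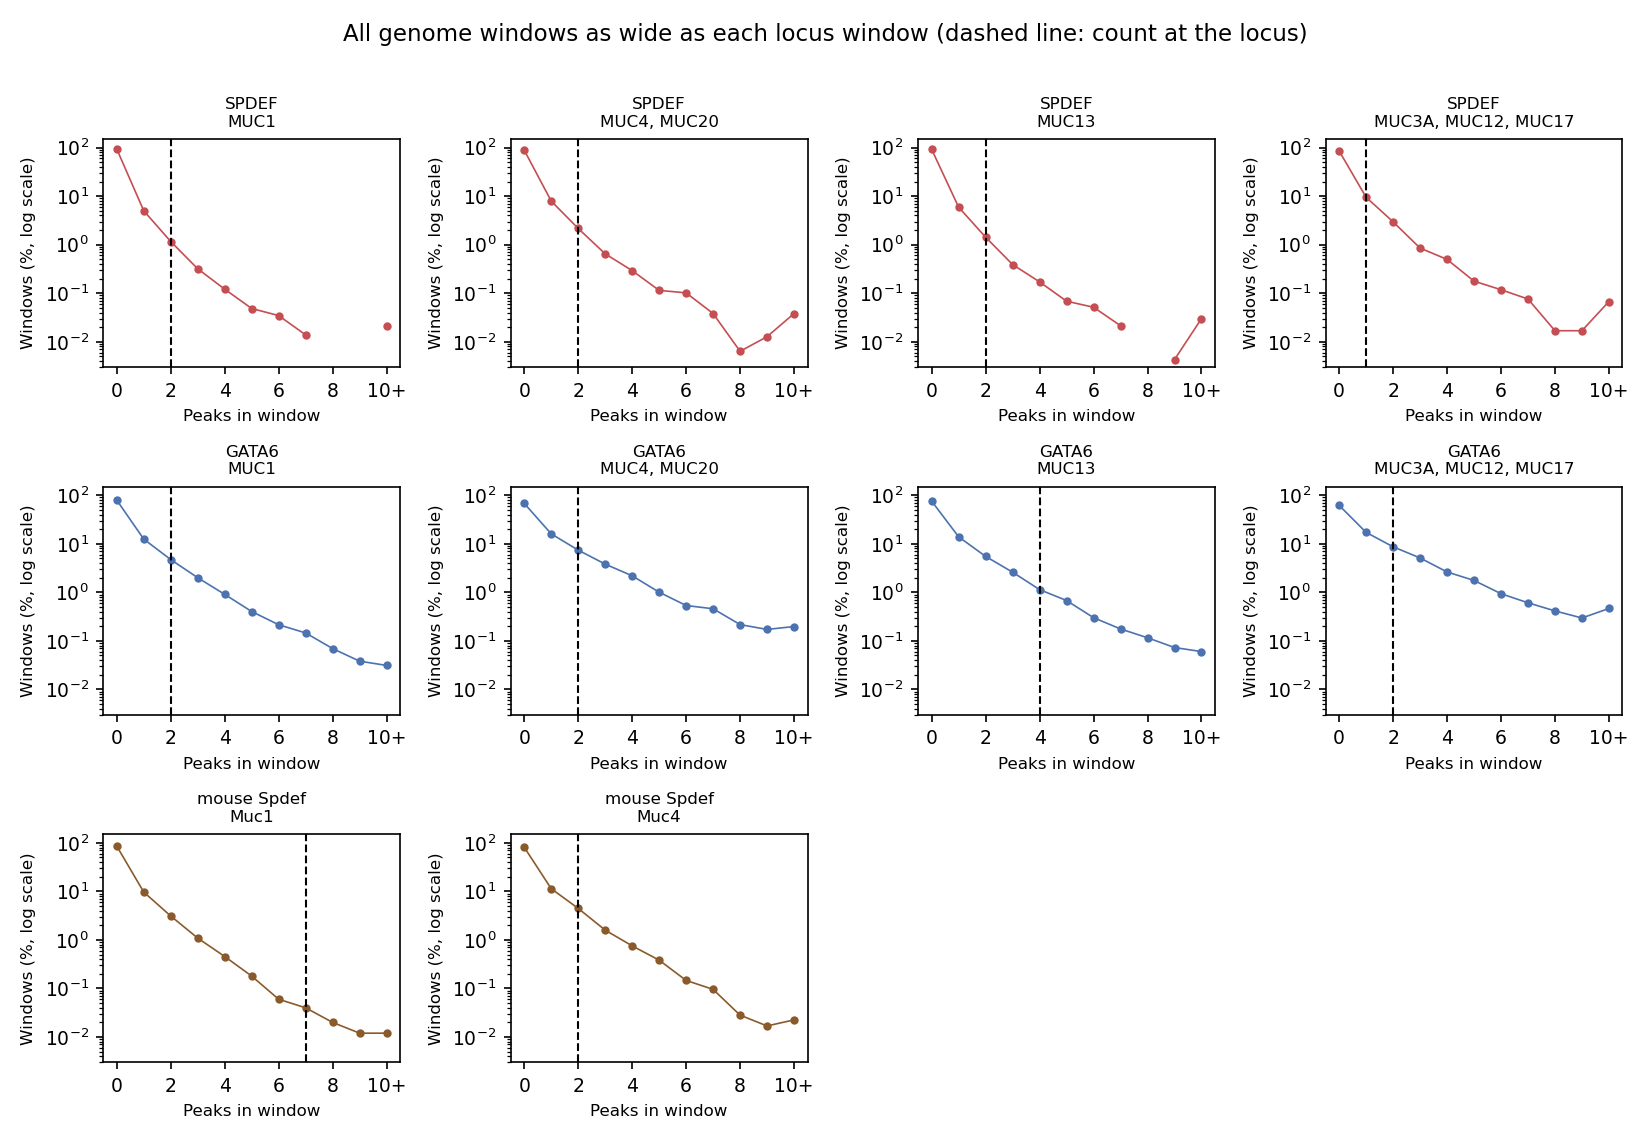
Percentage of genome windows (y axis, log scale) that hold a given number of peaks (x axis, with 10 or more pooled), for windows as wide as each locus window; the dashed line marks the count at the locus, and a gap in a curve means 0 windows. The mouse Muc1 count of 7 lies far down the curve (0.0838% of windows hold as many or more), while counts at the MUC3A, MUC12 and MUC17 cluster lie near its start.

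The promoters of 6 of the 7 members were in the RefSeq table, all but that of MUC20. In the 250 bases before the start, MUC1 had 2 GGAA matches, 140 and 120 bases before the start, and no GGAT. MUC13 had 4 GGAA matches and 1 GGAT, of which the last GGAA pair abuts the start. GGAA matches numbered 7 for MUC4, 8 for MUC3A, 3 for MUC12 and 3 for MUC17. The median over all 35116 promoters of the table was 3, and 92.7% of them hold GGAA and 70.7% GGAT. At least 7 GGAA matches, as in MUC4, were found in 4.10% of promoters and at least 8, as in MUC3A, in 1.70%, against 76.5% with at least the 2 of MUC1 and 34.3% with at least the 4 of MUC13.

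GATAA, found in 20.4% of all promoters, had no match in MUC1, MUC13, MUC4 or MUC12. It had 1 match in MUC3A and 3 in MUC17, at 211, 202 and 24 bases before the start. The mean over all promoters was 0.251 matches, and the share with as many as MUC17 is not given here. The longer forms CCGGAA (14.5% of promoters), CCGGAT (5.85%) and AGATAA (9.17%) had no match in any of the 6. All searches used both strands; CCGGAA and CCGGAT contain the shorter cores, AGATAA contains GATAA, and GGAT can run into GATAA. A missing match says only that these letters are not in this window. The GC content of the windows was 66.0% for MUC1 and 41.6% for MUC13, against a median of 58.0% (quartiles 46.4 and 68.0).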

How the data were processed

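The data are 3 peak lists of CUT&RUN libraries, deposited as BED files with 3 columns (chromosome, start and end), without scores or headers. Per the submitters' processing notes, the builds were hg19 and mm10 and the tools included MACS2 2.2.7.1, Bowtie2 2.4.4, deepTools and SAMtools 1.14; the threshold, the control and the combining of the 3 libraries per target are not stated in the sources used here. A list was tied to its target by its name. Chromosome lengths of hg19 and mm10 held every peak (0 beyond an end). Positions are printed counting from 1.

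A peak was a member if it touched the gene span plus 50 kb. Overlap meant at least 1 bp shared. Chromosomes 1 to 22 and X (mouse 1 to 19 and X) were tiled with windows as wide as each locus with its flanks, and each peak was counted in every window it touched. The shares of windows are descriptions, and no p-values were computed. Window counting was checked on simulated data. Promoters, gene order and strands came from RefSeq tables of GRCh38.p14, from which no position was carried to hg19. Chromosome lengths came from GenomeInfoDb 1.38.1, and the work was done in Python 3.11.15 with matplotlib 3.10.9, scipy 1.17.1 and numpy 2.4.6. The members and lists were chosen with earlier results of these data known. The peaks named are all SPDEF and mouse Spdef peaks at the loci, the GATA6 peaks that overlap them, and the widest and the nearest other GATA6 peak; the upstream GATA6 peak of MUC13 was added after it was seen. Promoters were printed for members with a peak within 2 kb of the 5′ end, and that of MUC17 was added after its matches were seen. Other flanks, peak widths, overlap rules and a shifted tiling were tried.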

Additional observations from a re-analysis of the deposited data

How the results depend on the processing

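No paired analysis was possible because a list gives no values per replicate; for the same reason no library could be left out. With counts this small, 1 peak can move a value by over 1.5 times. With flanks of 10 kb, SPDEF peaks fell to 1 at MUC1 and 0 at MUC13 (0 of them shared), GATA6 peaks to 2 at MUC13 and 1 at the MUC3A, MUC12 and MUC17 cluster, and mouse Spdef peaks to 4 at Muc1 and 1 at Muc4. With flanks of 100 kb, SPDEF peaks numbered 4 at MUC1 (2 shared), 5 at MUC4 and MUC20 (1 shared) and 2 at the cluster, and GATA6 peaks 6 at MUC4 and MUC20, 7 at MUC13 and 4 at the cluster. With the wider 50% of each list, GATA6 peaks numbered 0 at MUC1 and 1 at MUC13, SPDEF peaks 1 at MUC4 and MUC20 and 1 at MUC13, and mouse Spdef peaks 1 at Muc4. Shared peaks numbered 0 at MUC13 with 50% of both covered and 1 at MUC4 and MUC20 with midpoints within 1 kb. The other counts under these settings, and all 10 with peaks of at least 100 bp, stayed within 1.5 times, and the 13 shares of windows stayed inside their 95% Wilson intervals when the tiling was shifted by 50% of the window width. The shared peaks at the MUC1 5′ end and in the cluster were found under all 3 overlap rules, but that of MUC1 lost its GATA6 peak in the wider 50%. Both lie on a gene span as rounded to 1 kb, so no choice of flank could remove them. At MUC1 the SPDEF and GATA6 peaks reached only 113 and 141 bp into that span, less than the rounding error. Unknown depth limits every count: an absent peak is not shown to be an unbound site.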
